A study of Mus musculus with 10 samples.

Results

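Transcripts of 10 genes of the unfolded protein response and the integrated stress response were followed in mouse neuroretina after an injection into the vitreous. The genes were Atf4, Ddit3, Atf3, Xbp1, Trib3, Chac1, Hspa5, Hsp90b1, Dnajb9 and Herpud1, chosen by name for their role and found by symbol among the 57186 Ensembl genes of the deposited count table. All 10 were present and all 10 passed the filter on low counts, as did 11499 genes in all. A second Ensembl ID that carries the symbol Ddit3 had 0 counts in the 10 libraries and was not used. The CNP group received 1 µL of hg-C3N4, a graphitic carbon nitride nanoparticle, at 1 mg/mL in PBS. The PBS group was injected with PBS instead. Animals of both groups were female C57BL6/JRj mice, the injection was made with a blunt needle, and neuroretinas were taken and frozen 14 days later. Each group held 5 libraries, named here by group and by the number in the labels: CNP 4, 8, 12, 16 and 20, and PBS 2, 6, 10, 14 and 18. There was no uninjected group, and no label states the age of the mice. The design text counts mice for one group and eyes for the other, so p-values measure the spread between these libraries, which may in part be technical.

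The unfolded protein response is the programme that cells start when misfolded proteins gather in the endoplasmic reticulum (ER). The sensors IRE1, ATF6 and PERK sit in the ER membrane and drive the transcription factors XBP1, ATF6 and ATF4. The integrated stress response joins it at eIF2 alpha, which PERK and kinases for amino acid shortage, viral RNA and heme shortage all phosphorylate, and it raises ATF4 by translational control. Rod photoreceptors make large amounts of membrane protein each day, and mutant rhodopsin that folds poorly is a known trigger of this response in the retina.

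Total counts were 3493667 to 5354649 in CNP libraries and 3328518 to 5428697 in PBS libraries. Levels are given in CPM, counts scaled to a common library size with TMM, a factor that evens out differences in library composition. On this scale a count of 0 allowed a level of 0.506 to 0.976 CPM, depending on the library and by counting error only. All 7 rod marker genes were detected and summed to 46998 to 66476 CPM in CNP and 45902 to 81187 CPM in PBS. CPM is not divided by transcript length, so it compares libraries for 1 gene and does not rank genes against each other. In whole tissue, fewer cells of a type and less RNA per cell cannot be told apart.

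None of the 10 genes passed the test between CNP and PBS, and the estimated differences were small. Of the 10 genes, edgeR's quasi-likelihood test called 0 at an adjusted p under 0.05, as it did for 0% of all genes tested. At an unadjusted p under 0.05 there were again 0 of 10, against 1.19% of all genes, and DESeq2 and limma-voom also had 0 of 10 by either criterion. Libraries of the groups overlapped for all 10, while 0.287% of all genes showed no overlap. Of the log2 fold changes, 7 of 10 were negative (51.2% of all genes), the median log2 fold change was -0.05 (all genes -0.0036), and values ran from -0.16 for Chac1 to 0.08 for Ddit3. The 95% interval lay within 2-fold in either direction for 10 of 10 genes, against 94.2% of all genes, and within 1.5-fold for 9 of 10, against 65.3%. The exception to the tighter limit was Chac1. The adjusted p was 0.9997 for each of the 10 (edgeR).

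Atf4 (ENSMUSG00000042406) encodes the transcription factor at the centre of the integrated stress response. It measured 50.8, 53.5, 72.6, 71.4 and 76.8 CPM in CNP 4, 8, 12, 16 and 20, against 54.5, 51.6, 64.6, 79.4 and 65.7 CPM in PBS 2, 6, 10, 14 and 18. The groups covered nearly the same range, and the lowest values were those of CNP 4 and 8 and PBS 2 and 6. The estimated log2 fold change was 0.04 (SE 0.15, 95% interval -0.28 to 0.37). Since ATF4 is set mainly by translation, its transcript level does not show how much protein was made.

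Ddit3 (ENSMUSG00000025408) encodes CHOP, the factor that turns prolonged ER stress towards apoptosis. It measured 48.6, 37.0, 30.4, 41.7 and 37.8 CPM in CNP 4, 8, 12, 16 and 20, against 43.2, 27.9, 38.2, 40.8 and 36.1 CPM in PBS 2, 6, 10, 14 and 18. The groups overlapped, each with 1 library that stood highest, CNP 4 and PBS 2. CNP over PBS gave a log2 fold change of 0.08 (SE 0.14, 95% interval -0.23 to 0.39), with an upper bound of 1.31-fold. CNP 4 and PBS 2 were also the libraries with the most Egr1, an immediate early gene, at 8.30 and 8.46 log2 CPM, where the other 8 libraries held 7.03 to 7.38. Over 10 libraries Ddit3 and Egr1 had r = 0.66 (permutation p = 0.034, 0.113 adjusted over 50 relations) and rho = 0.53 (permutation p = 0.124, adjusted 0.363), and r = 0.32 without those 2 libraries, so the relation rests on them.

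Atf3 (ENSMUSG00000026628), a factor induced by ATF4 and by many other stresses, was scarce, with 26 to 59 counts per library. It measured 7.68, 5.23, 10.5, 10.7 and 12.4 CPM in CNP 4, 8, 12, 16 and 20, against 9.95, 9.35, 8.07, 9.06 and 9.76 CPM in PBS 2, 6, 10, 14 and 18. The groups overlapped and the means lay close together, at 9.32 ± 2.85 CPM in CNP and 9.24 ± 0.737 CPM in PBS (SD, n = 5 each), but CNP held both the lowest and the highest library. Between the groups the log2 fold change was -0.0063 (SE 0.21, 95% interval -0.46 to 0.45).

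Xbp1 (ENSMUSG00000020484) encodes the factor activated when IRE1 splices its messenger RNA, a step that counts per gene do not resolve. It measured 252.4, 264.1, 250.5, 234.8 and 213.1 CPM in CNP 4, 8, 12, 16 and 20, against 255.4, 311.4, 278.9, 226.2 and 240.1 CPM in PBS 2, 6, 10, 14 and 18. The groups overlapped, with the highest library PBS 6 and the lowest CNP 20. Its log2 fold change of -0.11 (SE 0.11, 95% interval -0.34 to 0.12) had the smallest unadjusted p of the 10 genes, 0.317 (edgeR).

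Trib3 and Chac1 are targets of ATF4 and CHOP. Trib3 (ENSMUSG00000032715), a pseudokinase that feeds back on AKT and on ATF4 itself, had 16 to 43 counts per library, the fewest of the 10 genes. It measured 6.40, 4.02, 6.62, 8.33 and 5.72 CPM in CNP 4, 8, 12, 16 and 20, against 7.25, 5.37, 7.42, 7.55 and 5.21 CPM in PBS 2, 6, 10, 14 and 18. The groups overlapped, CNP again held both ends of the range, CNP 8 and CNP 16, and the log2 fold change was -0.09 (SE 0.21, 95% interval -0.54 to 0.37).

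Chac1 (ENSMUSG00000027313) encodes a gamma-glutamylcyclotransferase that breaks down glutathione. It measured 26.7, 25.3, 13.8, 14.8 and 15.4 CPM in CNP 4, 8, 12, 16 and 20, against 26.5, 28.2, 26.8, 8.15 and 16.9 CPM in PBS 2, 6, 10, 14 and 18. Each group split in the same way, with the libraries numbered up to 10 at 25.3 CPM or more and those above 10 at 16.9 CPM or less, so that CNP and PBS overlapped. For CNP over PBS it came to a log2 fold change of -0.16 (SE 0.30, 95% interval -0.80 to 0.48), the widest interval of the 10 genes. Single libraries moved this value, which was -0.35 without PBS 14, -0.31 without CNP 4, -0.27 without CNP 8 and -0.23 without PBS 18. It was -0.043 to -0.091 without any 1 of PBS 2, 6 and 10 and CNP 12, 16 and 20. When library number above 10 was added to the fit as a covariate, the log2 fold change was 0.05 (SE 0.15, 95% interval -0.26 to 0.37), with the opposite sign.

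Hspa5 (ENSMUSG00000026864) encodes BiP, the main chaperone of the ER lumen, whose transcript is the usual readout of the unfolded protein response. It measured 586.1, 543.2, 584.7, 492.9 and 582.5 CPM in CNP 4, 8, 12, 16 and 20, against 602.2, 627.9, 546.0, 581.1 and 569.7 CPM in PBS 2, 6, 10, 14 and 18. Apart from CNP 16, the lowest, and PBS 6, the highest, the libraries of both groups lay together, and the groups overlapped. The group means were 557.9 ± 40.5 CPM in CNP and 585.4 ± 31.3 CPM in PBS (SD, n = 5 each), and the log2 fold change of -0.07 (SE 0.09) had a 95% interval from -0.27 to 0.13, that is 0.83-fold to 1.10-fold. This was the narrowest interval of the 10 genes.

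Hsp90b1 (ENSMUSG00000020048) encodes GRP94, the HSP90 of the ER. It measured 740.2, 586.6, 675.9, 646.1 and 854.2 CPM in CNP 4, 8, 12, 16 and 20, against 689.5, 626.3, 594.2, 708.8 and 778.9 CPM in PBS 2, 6, 10, 14 and 18. CNP 20 and PBS 18 were highest and CNP 8 was lowest, with overlap between the groups. The log2 fold change was 0.04 (SE 0.12, 95% interval -0.22 to 0.31).

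The promoters of these chaperones and of Herpud1 and Chac1 are printed because they show the elements by which the ER stress factors are known to act, and the 4 transcripts differed in how they varied between libraries. The sequences come from RefSeq on build GRCm38.p6 and run 5′ to 3′ on the gene's strand, from 250 bases before the transcript start to 50 bases after it, and each of the 10 genes matched a single window in that table. The lines show Hspa5 (chr2:34771840-34772139, plus strand), Hsp90b1 (chr10:86705395-86705694, minus strand), Herpud1 (chr8:94386179-94386478, plus strand) and Chac1 (chr2:119350992-119351291, plus strand), with the motif matches in capitals.

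Hspa5: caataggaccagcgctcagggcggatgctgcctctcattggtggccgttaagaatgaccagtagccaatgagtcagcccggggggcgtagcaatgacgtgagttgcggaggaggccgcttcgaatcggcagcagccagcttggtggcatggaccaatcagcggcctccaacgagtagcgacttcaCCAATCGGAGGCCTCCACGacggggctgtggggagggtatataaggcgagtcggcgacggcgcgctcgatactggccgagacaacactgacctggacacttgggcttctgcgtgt

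Hsp90b1: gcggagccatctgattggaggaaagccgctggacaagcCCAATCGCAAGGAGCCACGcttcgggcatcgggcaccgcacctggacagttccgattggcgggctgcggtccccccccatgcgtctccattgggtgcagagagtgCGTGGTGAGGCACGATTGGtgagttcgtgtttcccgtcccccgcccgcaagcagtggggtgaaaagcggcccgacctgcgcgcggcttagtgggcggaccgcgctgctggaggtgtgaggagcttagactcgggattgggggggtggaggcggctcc

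Herpud1: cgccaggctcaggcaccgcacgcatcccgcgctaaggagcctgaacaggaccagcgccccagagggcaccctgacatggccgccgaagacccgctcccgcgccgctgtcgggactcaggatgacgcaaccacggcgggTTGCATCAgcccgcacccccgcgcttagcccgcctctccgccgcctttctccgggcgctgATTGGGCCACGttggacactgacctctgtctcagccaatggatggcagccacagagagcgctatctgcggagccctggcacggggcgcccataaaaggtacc

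Chac1: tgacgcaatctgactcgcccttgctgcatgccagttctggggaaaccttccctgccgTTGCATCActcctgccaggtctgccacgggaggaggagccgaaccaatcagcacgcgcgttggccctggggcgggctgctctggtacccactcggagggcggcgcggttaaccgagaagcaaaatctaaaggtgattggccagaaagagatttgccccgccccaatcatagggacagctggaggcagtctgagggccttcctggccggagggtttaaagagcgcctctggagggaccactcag

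The motifs searched on both strands were the ER stress response element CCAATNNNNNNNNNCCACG, its second form ATTGGNCCACG, the C/EBP-ATF element TGATGNAA and the XBP1 element TGACGTGG. The first and second forms share the CCACG and CCAAT letters, one of them reversed, but no match of one overlapped a match of another in these windows. The ER stress response element was present in Hspa5, from -65 to -47 relative to the start, and at 2 places in Hsp90b1, from -212 to -194 and, on the opposite strand, from -107 to -89. Of all 32851 RefSeq windows, 0.119% held it. The second form was present in Herpud1 alone of the 10, from -52 to -42, and in 0.0365% of all windows. The C/EBP-ATF element was present in Chac1 (-193 to -186), Herpud1 (-112 to -105), Atf3 (-110 to -103) and Trib3 (15 to 22 bases past the start), and in 3.97% of all windows. The XBP1 element was in none of the 10 windows and in 0.676% of all. A match is a description of the letters only.

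Dnajb9 and Herpud1 serve the clearance of misfolded ER proteins. Dnajb9 (ENSMUSG00000014905) encodes ERdj4, a BiP co-chaperone that holds IRE1 in its inactive state. It measured 78.8, 78.4, 50.6, 57.2 and 52.5 CPM in CNP 4, 8, 12, 16 and 20, against 71.0, 73.7, 72.5, 56.8 and 53.0 CPM in PBS 2, 6, 10, 14 and 18. As with Chac1, each group held high libraries numbered up to 10 and low ones above 10, and the groups overlapped. Its log2 fold change was -0.04 (SE 0.15, 95% interval -0.37 to 0.29), and with the covariate it was 0.05 (SE 0.08, 95% interval -0.12 to 0.21).

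Herpud1 (ENSMUSG00000031770) encodes a membrane protein of the complex that retrieves misfolded proteins for degradation. It measured 124.6, 116.2, 86.4, 98.6 and 87.8 CPM in CNP 4, 8, 12, 16 and 20, against 134.0, 125.9, 118.9, 71.9 and 82.6 CPM in PBS 2, 6, 10, 14 and 18. The same libraries were high and low as for Chac1 and Dnajb9, with overlap between the groups. The log2 fold change was -0.06 (SE 0.18, 95% interval -0.44 to 0.32), and with the covariate 0.08 (SE 0.09, 95% interval -0.11 to 0.27).

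**Figure D1:**
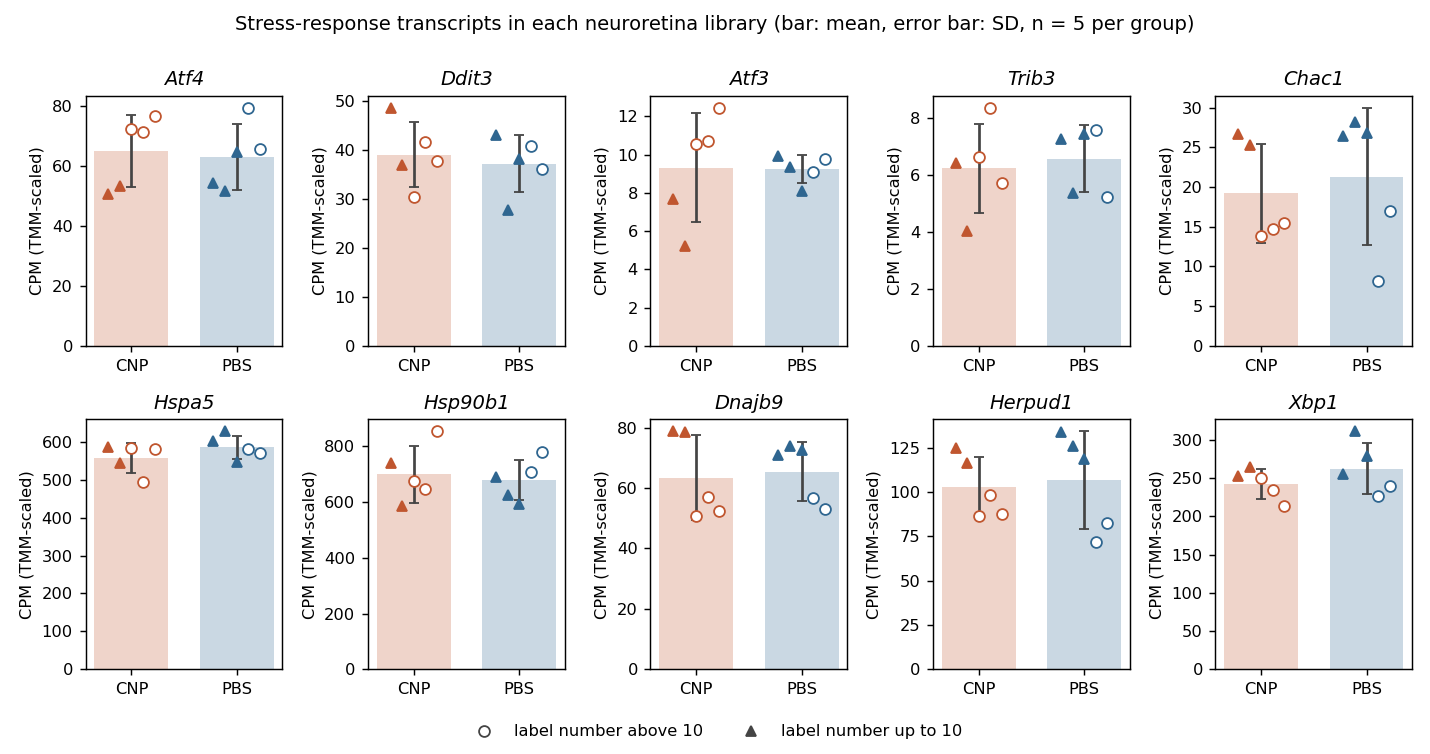
CPM of each of the 10 genes in the 10 libraries, CNP left and PBS right of each panel; bars are means, error bars SDs (n = 5 each), triangles libraries numbered up to 10 and open circles those above 10. The groups overlap in every panel, while triangles and circles separate for Chac1, Dnajb9, Herpud1 and, by a small margin, Atf4 and Xbp1.

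**Figure D2:**
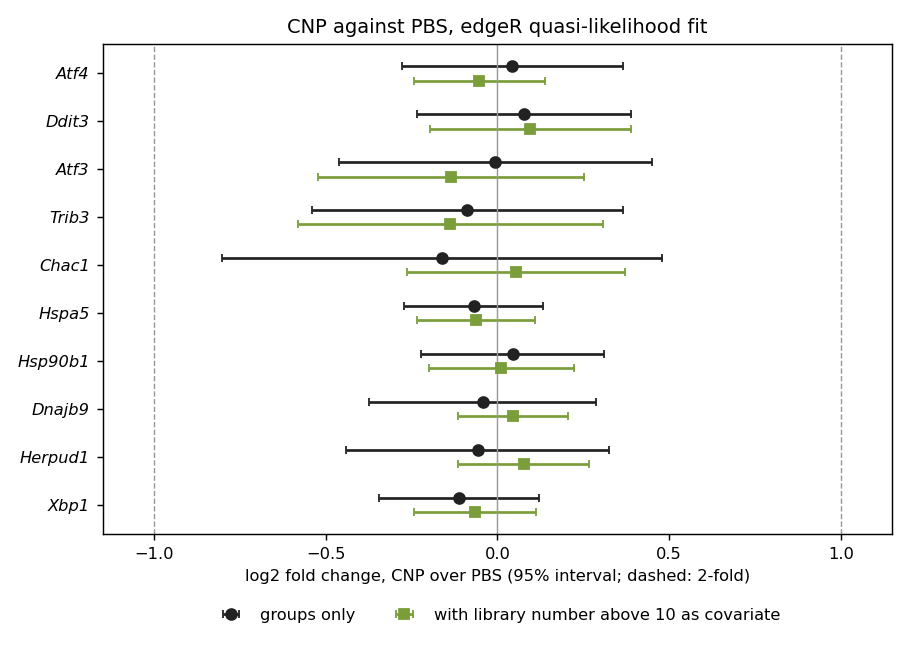
log2 fold change of CNP over PBS with its 95% interval (edgeR quasi-likelihood fit) for each gene, from the fit with groups only (circles) and from the fit with library number above 10 as a covariate (squares). All intervals include 0 and lie within 2-fold (dashed lines), and that of Chac1 narrows most with the covariate.

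By the number in their labels, 20.6% of all genes tested had 2 sets of libraries without overlap, against 0.287% by treatment, and 5 of the 10 stress genes were among them. The split at 10 was taken with earlier results of these data known, the labels do not say what the number stands for, and it is not balanced, with 3 CNP and 2 PBS libraries above 10 and 2 CNP and 3 PBS libraries up to 10. The values are therefore given as a description with no test. The mean was lower above 10 for 6 of the 10 genes, as for 52.6% of all genes. Of the 10, 4 were lower in every library above 10 than in any library up to 10 (Chac1, Herpud1, Dnajb9 and Xbp1), which 10.8% of all genes tested showed, and 1 (Atf4) was higher throughout, which 9.82% showed.

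Chac1 averaged 13.8 ± 3.36 CPM above 10 and 26.7 ± 1.03 CPM up to 10 (SD, n = 5 each), a ratio of 0.517. This ratio was the lowest of the 10 genes, and 2.77% of all genes tested had one that low or lower. Herpud1 averaged 85.5 ± 9.63 CPM above 10 and 123.9 ± 6.92 CPM up to 10, a ratio of 0.69. For Dnajb9 the means were 54.0 ± 2.86 CPM above 10 and 74.9 ± 3.53 CPM up to 10, a ratio of 0.721. These 3 genes separated with wide gaps: the nearest libraries stood at 16.9 CPM above 10 and 25.3 CPM up to 10 for Chac1, at 98.6 and 116.2 CPM for Herpud1, and at 57.2 and 71.0 CPM for Dnajb9. Xbp1 separated narrowly, with 250.5 CPM in the highest library above 10 and 252.4 CPM in the lowest up to 10, at means of 232.9 ± 14.2 CPM above 10 and 272.4 ± 24.1 CPM up to 10.

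Atf4 went the other way, with 73.2 ± 5.28 CPM above 10 and 55.0 ± 5.57 CPM up to 10, a ratio of 1.33, though its nearest libraries were 65.7 and 64.6 CPM. The set of libraries with more Atf4 transcript held less of its target Chac1. That was not so for its targets Atf3 and Trib3, which overlapped between the sets, with ratios of 1.30 and 1.10. Of 18 other tested targets of ATF4, 3 were lower in every library above 10, against 10.8% of all genes. The 3, named because they do not overlap, were Asns (ratio 0.591), Sesn2 (0.569) and Mthfd2 (0.704). Among the 18 targets 0 were higher in every library above 10, against 9.82% of all genes. The chaperone Hspa5 overlapped between the sets, at 562.2 ± 39.1 CPM above 10 and 581.1 ± 36.5 CPM up to 10. Hsp90b1 had 732.8 ± 84.0 CPM above 10 and 647.4 ± 65.8 CPM up to 10, with overlap. Ddit3 had 37.4 ± 4.48 CPM above 10 and 39.0 ± 7.72 CPM up to 10, Trib3 6.69 ± 1.28 CPM above 10 and 6.09 ± 1.42 CPM up to 10, and Atf3 10.5 ± 1.26 CPM above 10 and 8.05 ± 1.83 CPM up to 10, each with overlapping libraries. The ATF4 target Chac1, the degradation component Herpud1 and the co-chaperone Dnajb9 were thus lower in the libraries above 10, and Atf4 was higher. The chaperones Hspa5 and Hsp90b1 overlapped, as did the ATF4 targets Atf3 and Trib3.

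**Figure D3:**
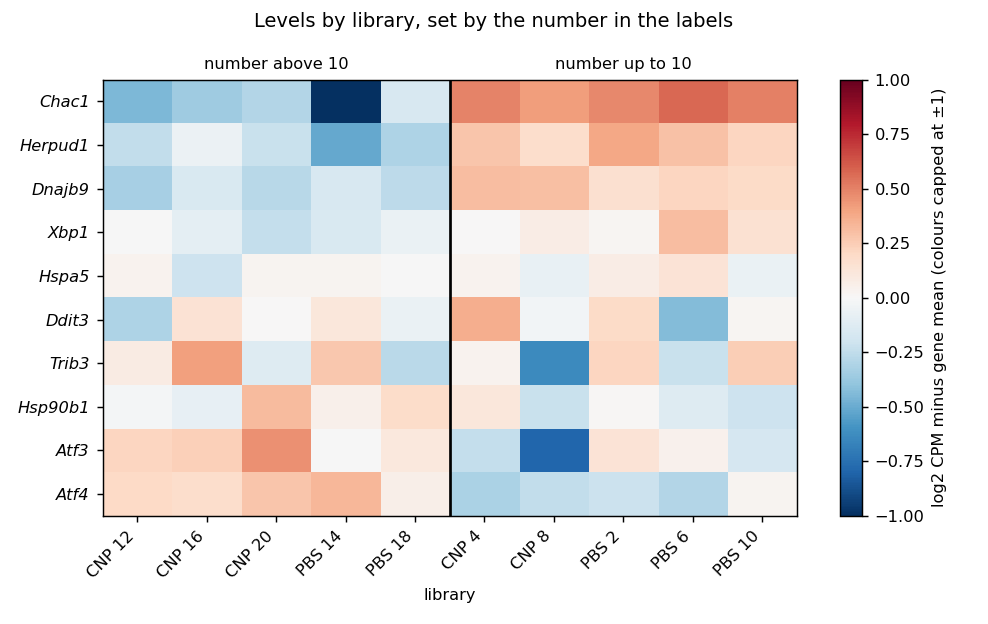
log2 CPM of each gene minus its mean over the 10 libraries, one column per library, with libraries numbered above 10 left of the black line and those up to 10 right of it, CNP before PBS on each side. Chac1, Herpud1 and Dnajb9 are below their mean in all 5 libraries on the left and above it in all 5 on the right, and PBS 14 holds the lowest value of Chac1, 8.15 CPM.

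The scaling bears on this split. On library totals alone, the median log2 ratio of all genes tested, libraries above 10 over those up to 10, was -0.23, against -0.021 with TMM. On totals Chac1 had -1.14, Herpud1 -0.73, Dnajb9 -0.68, Atf4 0.21 and Hspa5 -0.25. Chac1, Herpud1 and Dnajb9 separated under each of the 5 scalings tried. Atf4 separated under 4 of them and overlapped on totals. Xbp1 separated under 3 and overlapped with DESeq2 size factors and with upper-quartile scaling. Hspa5 separated on totals only, where 21.5% of all genes were lower throughout.

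Other measures of the libraries moved with the same split. Mitochondrially encoded genes took 3.21% to 4.45% of counts above 10 and 1.96% to 2.39% up to 10. Rod markers (7 of 7 detected) summed to 60020 to 81187 CPM above 10 and 45902 to 54285 CPM up to 10. Pigment epithelium markers (7 of 7 detected) summed to 1346 to 2324 CPM above 10 and 445.3 to 1190.5 CPM up to 10. Total counts averaged 3858013 above 10 and 5005469 up to 10, but overlapped, at 3328518 to 4337612 above 10 and 4325794 to 5428697 up to 10. Lens markers (8 of 8 detected) overlapped too, at 252.9 to 3914.5 CPM above 10 and 194.7 to 7632 CPM up to 10. Gene by gene, 10.8% of all genes tested were lower in every library above 10 and 9.82% were higher in every one. Of the rod markers 5 of 7 were higher throughout, of the pigment epithelium markers 4 of 7, and of the lens markers 0 of 8. Of the amacrine and ganglion cell markers 4 of 6 were lower in every library above 10, with sums of 1407 to 1823 CPM above 10 and 1546 to 2096 CPM up to 10. Of the bipolar cell markers 3 of 5 were lower throughout, with sums of 968.3 to 1421 CPM above 10 and 1185 to 1371 CPM up to 10, and of the Müller glia markers 1 of 6, with sums of 3170 to 4306 CPM above 10 and 3861 to 4612 CPM up to 10. None of these marker lists had a gene at 0 in every library. Between the treatment groups, pigment epithelium markers were 864.8 to 2324 CPM in CNP and 445.3 to 2264.5 CPM in PBS. The part of these measures in the split was not tested.

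**Figure D4:**
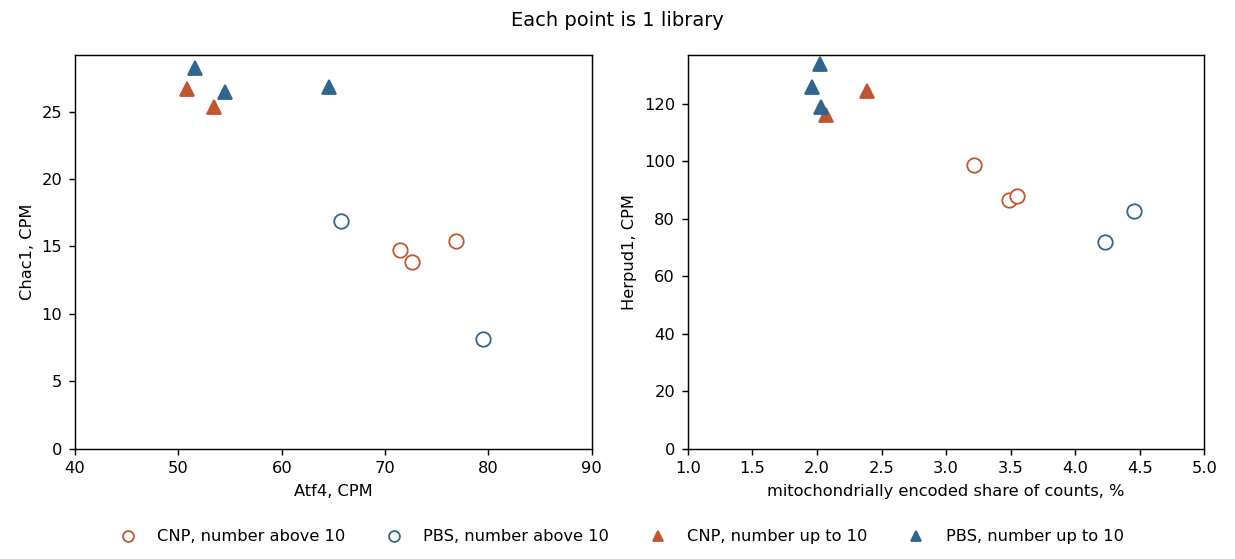
Left, Chac1 against Atf4, both in CPM; right, Herpud1 in CPM against the percentage of counts from mitochondrially encoded genes; each point is 1 library, coloured by group, with open circles above 10 and filled triangles up to 10. In both panels the libraries fall into 2 sets by number, with CNP and PBS in each.

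Within the sets, CNP and PBS can be compared only as values. Chac1 averaged 14.7 CPM in 3 CNP and 12.5 CPM in 2 PBS libraries above 10, and 26.0 CPM in 2 CNP and 27.2 CPM in 3 PBS libraries up to 10. Herpud1 averaged 90.9 CPM in CNP and 77.3 CPM in PBS above 10, and 120.4 CPM in CNP and 126.3 CPM in PBS up to 10. Dnajb9 averaged 53.4 CPM in CNP and 54.9 CPM in PBS above 10, and 78.6 CPM in CNP and 72.4 CPM in PBS up to 10. Atf3 averaged 11.2 CPM in CNP and 9.41 CPM in PBS above 10, and 6.45 CPM in CNP and 9.12 CPM in PBS up to 10. CNP and PBS libraries did not overlap for 2 of the 10 genes above 10, Atf3 and Herpud1, against 19.3% of all genes, and for 2 of the 10 up to 10, Atf3 and Dnajb9, against 13.2%. Atf3 had no overlap in both sets with opposite directions, as did 1.46% of all genes. The sign of the difference between the means differed between the sets for 8 of the 10 genes, against 53.6% of all genes. Hspa5 had 553.4 CPM in CNP and 575.4 CPM in PBS above 10, and 564.7 CPM in CNP and 592.0 CPM in PBS up to 10. With number above 10 as a covariate, edgeR called 0 of the 10 genes (smallest unadjusted p = 0.406).

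Pooled co-variation is read only for the 10 pairs of genes that do not separate by number, and 0 of these passed. Correlations were computed for 45 pairs on log2 CPM over the 10 libraries. For the 35 pairs with a gene that separates by number, no pooled value is given, since the libraries form clusters. Among the other 10 pairs r ran from -0.34 to 0.60. The highest belonged to Atf3 and Hsp90b1 (r = 0.60, permutation p = 0.0627, 0.217 adjusted over 45 pairs; rho = 0.43, permutation p = 0.218, adjusted 0.496), and without CNP 8 and CNP 20, the libraries farthest from the median of Atf3, r was 0.0098. The chaperones Hspa5 and Hsp90b1 had r = 0.29 (permutation p = 0.413, adjusted 0.62) and rho = 0.28 (permutation p = 0.426, adjusted 0.66), and r = 0.62 without CNP 16 and PBS 6.

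With the mean of each number set removed, a step added after the data were seen, 0 of 45 pairs passed after adjustment. The strongest r was that of Ddit3 and Xbp1 (r = -0.84, exact permutation p within sets = 0.00708, adjusted 0.319; rho = -0.72, exact p = 0.0351, adjusted 0.789), and r was -0.62 without CNP 4 and PBS 6. Library CNP 4 had much Ddit3 and little Xbp1 for its set, and PBS 6 the reverse. Atf3 and Herpud1 had rho = 0.84 (exact permutation p = 0.00521, adjusted 0.234) and r = 0.58 (exact p = 0.0259, adjusted 0.583), and r = 0.56 without CNP 8 and PBS 2. Atf4 and Chac1 had r = -0.45 in this form (exact permutation p = 0.162, adjusted 0.829) and rho = -0.33 (exact p = 0.313, adjusted 0.88), with r = -0.21 without PBS 10 and PBS 14. In this form 0 of the 45 pairs reached an r of 0.8, against 0.954% of all pairs of tested genes. Before the set means were removed, 3 of the 45 pairs did, or 6.67%, against 3.12% of all pairs, and those 3 were pairs of genes that separate by number.

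The genes most like each one over the 10 libraries, by Pearson's r of log2 CPM, were found over the same 11499 tested genes. Nearest to Chac1 were the GABA receptor gene Gabrr1 (r = 0.98), Chst10 (0.98) and Trim62 (0.98). Gabrr1 stood at 43.8 to 66.9 CPM above 10 and 88.8 to 103.2 CPM up to 10. Nearest to Herpud1 were Faim2 (0.99), the kinase gene Mapk10 (0.99) and Asph (0.99), and among those nearest to Dnajb9 were the synaptic complexin Cplx1 (0.96) and Adgrb1 (0.96). For Xbp1 they were Tnfsf9 (0.92), Ppm1e (0.91) and Tuba8 (0.91). Atf4 was nearest to Prkab1 (0.97), the disulfide isomerase gene Pdia5 (0.97) and Crebzf (0.96), all higher above 10. Every gene named for Chac1, Herpud1, Dnajb9, Xbp1 and Atf4 separates by number too. Their r values therefore cannot be told apart from the split, and likeness within a set was not tested. The other genes overlap between the sets, as did their nearest. Hsp90b1 had Anp32a (0.98), the translation factor gene Eif4g2 (0.95) and the photoreceptor gene Nxnl1 (0.95). Hspa5 had Sap130 (0.94), Mak16 (0.93) and Cnot4 (0.92), and Trib3 had Surf2 (0.93), Ap5s1 (0.91) and the lysosomal hexosaminidase gene Hexa (0.88). Ddit3 had Xpa (0.89), E2f5 (0.86) and Tmem14c (0.85), and Atf3 had Ciao1 (0.86), Tgds (0.84) and Stk17b (0.84). These values are among the highest of 11499 for each gene and describe likeness only.

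In the wider pathway too, no gene passed the test between CNP and PBS. Of 79 further genes in 5 lists, 71 could be tested, and edgeR called 0 higher and 0 lower. At an unadjusted p under 0.05 there were 0, against 1.19% of all genes, and DESeq2 and limma-voom also had 0. The median log2 fold change was -0.013 and 28 of 71 were positive, against 48.8% of all genes. The 95% interval lay within 2-fold for 71 of 71, against 94.2% of all genes, and within 1.5-fold for 61 of 71, against 65.3%.

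Among sensors and regulators of eIF2, 15 of 18 were tested, and 13 of the 15 had a negative fold change, against 51.2% of all genes. The median was -0.093 (all genes -0.0036), and none of the 15 was called. Ppp1r15b, a subunit of the phosphatase that reverses eIF2 alpha phosphorylation, had the smallest p of all 71 genes (log2 fold change -0.33, 95% interval -0.66 to 0.0083, unadjusted p = 0.0549, edgeR). It measured 7.14 CPM in CNP and 8.91 CPM in PBS. Eif2s1, which encodes eIF2 alpha, had -0.10, Atf6b 0.07 and the protease gene Mbtps2 0.02. The IRE1 gene Ern1 did not pass the filter, with 40 counts in CNP and 43 in PBS, Eif2ak2 had 48 in CNP and 42 in PBS, and Ern2, the IRE1 of mucosal epithelium, had 0 counts in both groups.

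Of 22 other targets of ATF4, 18 were tested, with 6 positive (48.8% of all genes), 12 negative and a median of -0.02. The members with the smallest p were the C/EBP partner Cebpg (0.29) and the transcription factor Atf5 (0.20) on the positive side, and the stress sensor Sesn2 (-0.41) and the proline synthesis gene Aldh18a1 (-0.15) on the negative side, none past the threshold. Ddit4, the most abundant by CPM, had 0.0083. Pycr1, Slc7a11 and Stc2 were too scarce, with 28, 12 and 29 counts in CNP and 23, 12 and 33 in PBS, and the stress hormone gene Fgf21 had 0 counts in both.

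All 14 ER chaperones were tested, with 6 positive, 8 negative and a median of -0.0051. Creld2 (0.11), Dnajb11 (0.05), Dnajc3 (-0.09) and Ppib (-0.05) had the smallest p, and the disulfide isomerase gene Pdia3 had -0.04. In the same list the interval was within 1.5-fold for 14 of 14, against 65.3% of all genes. All 9 translocation and traffic genes were tested, with 7 positive, against 48.8% of all genes, and a median of 0.045. Sec63 had 0.15, the signal receptor subunit Srpr 0.09, Sec61b 0.07, the channel subunit Sec61a1 -0.16 and the cargo receptor Lman1 -0.03. Of 16 genes of ER-associated degradation, 15 were tested, with 7 positive, 8 negative and a median of -0.0013. Nploc4 had 0.30, the lectin Os9 0.16, the ligase scaffold Sel1l -0.18, Hm13 -0.05 and the segregase Vcp -0.03.

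Beside them stood heat shock genes (9 of 10 tested, median 0.012) and immediate early genes (11 of 13 tested, median -0.0025). Both lists held 0 genes past the threshold and 0 at an unadjusted p under 0.05 (edgeR), against 1.19% of all genes. The heat shock genes named were Hspa8 (-0.17), Hspb1 (-0.34), Hspd1 (0.05) and Hsp90aa1 (0.04). The immediate early genes named were Junb (0.11), Fos (0.09), Nr4a1 (-0.11), Jun (-0.07) and Btg2 (-0.04).

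By number, 8 of the 71 tested genes of the pathway lists were lower in every library above 10, near the share of 10.8% among all genes. Another 4 were higher in every library above 10, against 9.82% of all genes. Among the lower ones were 3 of the 18 ATF4 targets: Asns, the asparagine synthetase, stood at 27.3 to 44.3 CPM above 10 and 54.7 to 63.4 CPM up to 10. Sesn2 stood at 7.83 to 12.4 CPM above 10 and 13.7 to 21.6 CPM up to 10, and the folate enzyme Mthfd2 at 20.5 to 28.9 CPM above 10 and 33.4 to 41.1 CPM up to 10. The others were the heme-regulated eIF2 kinase Eif2ak1 (ratio 0.674), the chaperone Hyou1 (0.647), Sec61a1 (0.792), Sel1l (0.689) and Derl1 (0.816). The 4 higher ones were Dnajb11 (1.10), Sec61b (1.33), Ssr3 (1.11) and Selenos (1.23). These genes are named because they do not overlap, so their values were seen first.

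**Figure D5:**
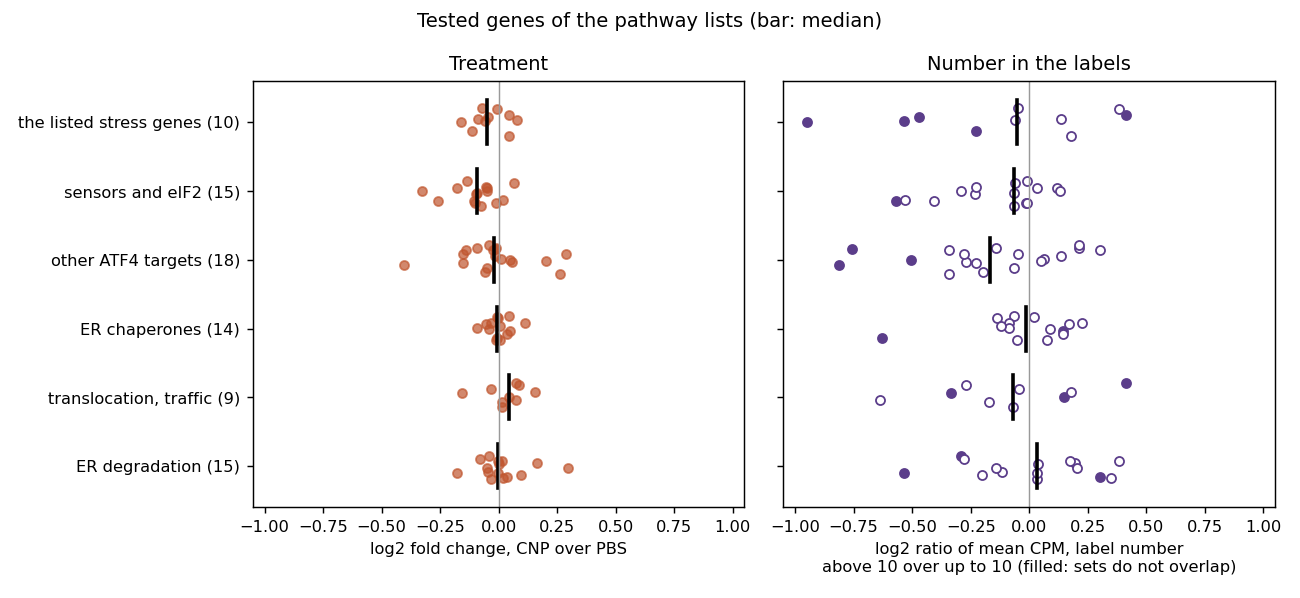
Each point is a tested gene, with the number of genes beside the list name and a bar at the list's median; left, log2 fold change of CNP over PBS; right, log2 ratio of mean CPM in libraries numbered above 10 over those up to 10, filled where the 2 sets of libraries do not overlap. The heat shock and immediate early genes are not drawn. On the left all drawn genes lie between -0.41 and 0.30, while on the right the lowest drawn gene, Chac1, is at -0.95.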

How the data were processed

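Polyadenylated RNA was copied to full-length cDNA by template switching, using UMI-tagged barcoded primers (UMIs mark single molecules), then amplified and sequenced, per the labels' protocols. The authors deposited raw counts per Ensembl gene, made with STAR and STARsolo on GRCm39, per the submitters' processing notes. The sources used here name no versions, annotation, strand setting or UMI collapsing; without collapsing, amplification copies would add to the counts.

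Symbols came from a table matching 51880 of 57186 IDs. The filter filterByExpr (minimum count 10, minimum total 15) left 11499 genes. Counts were scaled by TMM and tested with edgeR 4.0.16 (quasi-likelihood, two-sided, Benjamini-Hochberg over all tested genes, threshold 0.05) in R 4.3.3. Standard errors and intervals follow from the F statistic. log2 CPM used a prior count of 2. Correlations used 100000 permutations, and within number sets all 14400, whose smallest p is 6.94e-05. The scripts were tested on simulated data. Alternatives included DESeq2 1.42.0 and limma-voom (limma 3.58.1); the removal of number-set means and the other scalings of the split by number were chosen after seeing the data. No 2 libraries of a group were duplicates: chi-square per degree of freedom was 4.4 to 36.5 over 20 pairs.

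The 10 genes and all lists were chosen with earlier results of these data known. Named list genes are, per list, the 2 higher and 2 lower in CNP with the smallest p and the most abundant; likeness names the 3 genes with the highest r, skipping predicted genes and pseudogenes; 1 gene so chosen is not reported here.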

Additional observations from a re-analysis of the deposited data

How the results depend on the processing

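Under all alternatives run (9 other fits and 10 fits that each left out 1 library), 0 of all genes, 0 of the 10 stress genes and 0 of the pathway genes were called, and the 95% interval of all 10 stayed within 2-fold. The count of genes at an unadjusted p under 0.05, 137 in the fit reported, was 422 without the low-count filter, 272 with number above 10 as a covariate and 301 without PBS 14, all others lying between 105 and 205; of the 10 genes it was 0 in each.

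No fold change was called, so changes of sign are changes about 0. With the number covariate the log2 fold change was -0.053 for Atf4, 0.053 for Chac1, 0.045 for Dnajb9 and 0.076 for Herpud1, and with upper-quartile scaling that of Atf3 was 0.0011. Leaving out 1 library gave ranges of -0.13 to 0.16 for Atf3, -0.024 to 0.14 for Atf4, -0.35 to -0.043 for Chac1, -0.015 to 0.15 for Ddit3, -0.22 to 0.048 for Trib3, -0.13 to 0.026 for Dnajb9, -0.17 to 0.036 for Herpud1 and -0.037 to 0.11 for Hsp90b1.

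Of correlations among the 5 genes that do not separate by number, 0 of 10 passed in any setting. On library totals r was 0.16 for Ddit3 and Hspa5 and -0.15 for Trib3 and Hsp90b1, which had -0.14 with number-set means removed. Leaving out 1 library gave -0.14 to 0.66 for Atf3 and Trib3, -0.11 to 0.55 for Atf3 and Hspa5, -0.61 to 0.21 for Trib3 and Hspa5, and -0.48 to 0.16 for Trib3 and Hsp90b1. Of 25 relations of these genes with library measures, 0 passed after adjustment, but 3 did on library totals; the cause was not tested. The number of stress genes that separate by number was 5, and 4 to 5 under the other scalings, though not always the same genes. On library totals Hspa5 separated and Atf4 did not, and 21.5% of all genes were lower throughout and 3.45% higher. With TMM these shares were 10.8% and 9.82%. Leaving out a library cannot end a separation.

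No paired analysis was possible because the groups share no replicate number. Depth limits Atf3 and Trib3 most, at 26 to 59 and 16 to 43 counts per library.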
